A study of Homo sapiens with 5 samples.

Results

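The ZBTB7A peaks that VCaP cells had in windows around the main clusters of replication-dependent histone genes, called HIST1 and HIST2, are described here. Replication-dependent histones are the H1, H2A, H2B, H3 and H4 proteins made in S phase to package newly copied DNA. Their genes lie in tandem and divergent groups, carry no introns and give messages that end in a stem-loop bound by SLBP in place of a poly(A) tail, and NPAT, a substrate of cyclin E and CDK2, gathers at the clusters to drive their transcription. ZBTB7A (also called LRF or Pokemon) is a BTB zinc finger transcription factor that silences fetal globin genes in red cells and has been described as either an oncogene or a tumour suppressor in different tissues. Peaks were chosen by position alone: a peak belonged to the HIST1 window if its summit lay on chromosome 6 between 25.9 and 28.4 Mb, and to the HIST2 window if it lay on chromosome 1 between 149.75 and 149.90 Mb (hg19). By this rule 476 of the 196770 peaks in the 3 deposited lists were members, 68 in CSS, 61 in DHT and 347 in FBS.

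VCaP, an established line from a prostate cancer, responds to androgen. The CSS cells (2 libraries) were taken to have received vehicle and the DHT cells (2 libraries) 10 nM of the androgen DHT for 4 hours. Both were in medium with 5% CSS, which the series design describes as hormone-depleted serum. The FBS cells (1 library) were taken to be cells in full serum without added DHT, as their culture condition and the series design have it. The treatment text is the same for all 5 libraries, so it could not be used for this. Routine medium is given with 10% FBS, so the FBS cells may differ from the others in serum percentage as well. All were precipitated with the same antibody to ZBTB7A. With 1 peak list for each condition there is no replicate spread and no test between conditions, and all intervals are exact 95% intervals for counting error alone. Read totals are not in the lists and the depth is unknown, so fold enrichment and −log10 q, which are the authors' values, describe a peak only within its own list, and the length of a list can reflect depth as well as binding.

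Gene content is known here only by gene order, because the gene and promoter tables used are RefSeq on GRCh38.p14 and coordinates were not carried between builds. It was counted from the first to the last histone gene of each cluster. Any genes of a window that lie outside that span were not counted. No peak is therefore assigned to a gene. In that order, HIST1 holds 55 protein-coding histone genes (6 of H1, 12 of H2A, 15 of H2B, 10 of H3 and 12 of H4), and HIST2 holds 11 (4 of H2A, 2 of H2B, 3 of H3 and 2 of H4). HIST1 is far from pure: of the 240 genes between its first and last histone gene, 98 are tRNA genes and 19 are other protein-coding genes, among them 6 butyrophilin (BTN) genes and 3 ZNF genes. The window name thus describes a neighbourhood of histone genes and not the histone genes alone. In HIST2, 11 of the 15 genes in the same span are protein-coding histone genes.

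HIST2 carries copies of the same genes in opposite orientation, and their promoters are shown because the HIST2 peaks, described below, also lay in a mirrored arrangement. H4C14 and H4C15 encode histone H4 and lie on opposite strands, and their 300-base promoter windows (250 bases before to 50 after the start) were identical over 300 bases. The windows of the H3 genes H3C14 and H3C15 shared an unbroken run of 296 bases, and those of the H2A genes H2AC18 and H2AC19 a run of 299 bases, again on opposite strands. The 150 bases before the start of the first gene of each pair are given 5′ to 3′ from RefSeq (chromosome 1, GRCh38.p14), with capitals for the promoter words CCAAT (or its complement ATTGG) and TATAAA.
H4C14 and H4C15: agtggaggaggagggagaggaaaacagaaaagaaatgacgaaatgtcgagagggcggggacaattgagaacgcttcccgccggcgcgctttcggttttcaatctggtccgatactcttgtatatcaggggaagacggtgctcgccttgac
H3C14 and H3C15: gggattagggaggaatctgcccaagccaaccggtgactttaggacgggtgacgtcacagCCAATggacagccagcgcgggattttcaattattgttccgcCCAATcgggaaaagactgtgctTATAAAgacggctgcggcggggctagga
H2AC18 and H2AC19: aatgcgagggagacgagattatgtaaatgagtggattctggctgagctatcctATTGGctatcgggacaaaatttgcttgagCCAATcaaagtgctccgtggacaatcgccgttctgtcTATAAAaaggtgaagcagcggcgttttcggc
The H3 and H2A sequences each hold 3 such words, and the H4 sequence holds neither word. A read that lies wholly in an identical run fits both copies equally well, and the sources used here do not give how multiply mapped reads were handled.

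The promoters of the histone genes as a whole carried the class-specific words known for them, while GACCC, a word searched for ZBTB7A, was less frequent than among all promoters. Promoters were matched for 61 of 66 genes (none for H2AC12, H3C11, H3C12, H4C1 and H4C3), giving 65 promoter windows, of which 63 differed in sequence, and each word was searched on both strands among these and among all 35116 promoters of the table. The CCAAT box was present in 56 of 65 (86.2%, 75.3 to 93.5%) against 34.6% of all promoters, and in each of the H1, H2A, H2B and H3 promoters but only 3 of 12 H4 promoters. TATAAA was present in 44 (67.7%, 54.9 to 78.8%) against 11.5%. The octamer ATTTGCAT, which binds OCT1 in H2B promoters, was in 15 of 19 H2B and 11 of 15 H2A promoters against 1.77% of all promoters, and the H1 box AAACACA was in 6 of 6 H1 promoters against 5.64%. CGACCACCG, the longer of the words searched for ZBTB7A, was in 0 of 65 (up to 5.52%) and in 0.165% of all promoters, so a difference was not detectable. The shorter word GACCC, which the longer does not contain, was in 12 of 65 (18.5%, 9.92 to 30.0%) against 47.6% of all promoters. The E2F word TTTCCCGC was in 1 of 65 (1.54%) against 1.63%. Windows of divergent neighbours, or of the same gene, can overlap, so a word can be counted more than once. The intervals take the windows as separate, and the overlap was not measured. A match is not a binding site, and a missing word says only that these letters are not in this window.

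The first question is how many ZBTB7A peaks the histone windows hold in each condition. Both windows held more peaks per Mb than the rest of the autosomes in each list, and in HIST1 the excess was greatest in FBS. Only for the 4 DHT peaks of HIST2 does the interval include the value of the rest of the autosomes, 11.5 per Mb. HIST1 held 59 CSS peaks (23.6 per Mb, 18 to 30.4), 57 DHT peaks (22.8 per Mb, 17.3 to 29.5) and 324 FBS peaks (130 per Mb, 116 to 145). These densities were 1.86, 1.98 and 2.99 times those of the rest of the autosomes in the same lists, with chromosome lengths taken from the first to the last peak. HIST2, 150 kb long, held 9 CSS, 4 DHT and 23 FBS peaks, or 4.73, 2.31 and 3.53 times the rest of the autosomes. The few HIST2 peaks leave wide intervals, from 7.27 to 68.3 per Mb in DHT and from 27.4 to 114 per Mb in CSS. The HIST2 flanks of equal length were also denser than the rest of the autosomes, at 2.10 (CSS), 2.31 (DHT) and 1.84 (FBS) times before the window, with 4, 4 and 12 peaks, and at 2.10, 1.16 and 1.54 times after it, with 4, 2 and 10. The flank before HIST2 thus held as many DHT peaks as HIST2 itself. FBS peaks covered 4.29% of the bases of HIST1 and 6.37% of HIST2, against 1.37% of the autosomes. CSS peaks covered 0.682% and 1.83%, and DHT peaks 0.720% and 1.10%, against 0.405% and 0.365%.

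CSS and DHT gave the windows nearly the same share of their lists, and FBS gave them a larger one. The windows took 0.180% of the CSS list, 0.179% of the DHT list and 0.278% of the FBS list. The DHT share was 0.993 times the CSS share (0.691 to 1.42), so a change of the count with DHT of up to about that range would not have been detectable. The FBS share was 1.54 times the CSS share (1.19 to 2.03) and 1.55 times the DHT share (1.18 to 2.08). The FBS to CSS ratio of shares was 1.66 (1.26 to 2.23) in HIST1 and 0.773 (0.345 to 1.90) in HIST2, where the interval is wide and includes the HIST1 value. The FBS to DHT ratio was 1.55 (1.17 to 2.10) in HIST1 and 1.57 (0.537 to 6.25) in HIST2. The ratio of FBS to CSS shares over the rest of chromosome 6 was 0.923 (0.875 to 0.974). When the lists were limited to a −log10 q of 10 or more, the FBS to CSS ratio of the 2 windows together was 7.15 (2.82 to 23.2), from 40 FBS and 5 CSS peaks. That limit kept unlike parts of the lists, 14.5% of CSS and 4.92% of FBS peaks. With equal numbers of top peaks from each list the ratio was 1.98 (1.45 to 2.74).

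The flanks place this in its neighbourhood. In the 2.5 Mb before HIST1 there were 28 CSS, 32 DHT and 182 FBS peaks, and the FBS to CSS ratio of shares was 1.97 (1.32 to 3.04), so the higher FBS share was not particular to the histone window. In the 2.5 Mb after it there were 57 CSS, 49 DHT and 52 FBS peaks, and the ratio was 0.276 (0.186 to 0.409). The change lay just past the window. In steps of 500 kb, FBS peaks numbered 65 in the last step of HIST1, 40 in the next and 1 in the one after. CSS peaks numbered 12, 11 and 8 there and DHT peaks 14, 11 and 8. In the later steps of this flank FBS peaks numbered 5, 4 and 2, CSS peaks 11, 14 and 13, and DHT peaks 9, 10 and 11. FBS counts thus stayed low over most of this flank while CSS and DHT counts did not. The cause, read mapping included, was not tested. Across the 5 steps of HIST1 itself the FBS count was 5.12 to 6.27 times the CSS count, against 3.30 times for the whole lists.

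**Figure D1:**
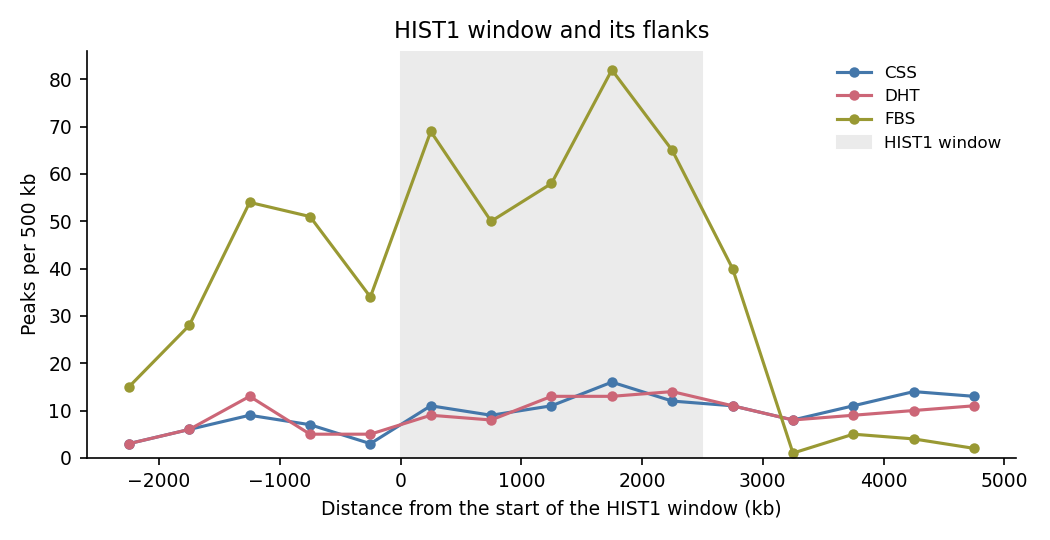
Peaks per 500 kb (vertical axis) in CSS, DHT and FBS against distance from the start of the HIST1 window in kb, with the window shaded. FBS counts are 50 to 82 inside the window and fall to 1 in the second step past it, while CSS and DHT stay between 8 and 16 over the same stretch.

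Peaks were spread unevenly along HIST1, and CSS and DHT shared their empty stretches. Of 25 bins of 100 kb, 5 held no CSS peak, 6 no DHT peak and 0 no FBS peak, and the median bin held 2, 3 and 14 peaks respectively. The 5 bins with no CSS peak had no DHT peak either, and they held 6 to 13 FBS peaks each (median 10.0). The longest distance between neighbouring CSS summits was 229 kb, from 26291999 to 26521328, a stretch with 16 FBS summits. In DHT it was 276 kb, from 26225496 to 26501968, with 27 FBS summits. The bin with most CSS peaks, from 27800001 to 27900000, held 7 of them with 3 DHT and 19 FBS peaks. The highest DHT bin, from 27300001 to 27400000, held 6 DHT, 3 CSS and 9 FBS peaks. The highest FBS bin, from 27600001 to 27700000, held 20 FBS peaks with 1 CSS and 3 DHT peaks, so the lists did not peak in the same bin. Neighbouring FBS summits were a median of 5.87 kb apart, against 21.5 kb in CSS and 26.2 kb in DHT.

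**Figure D2:**
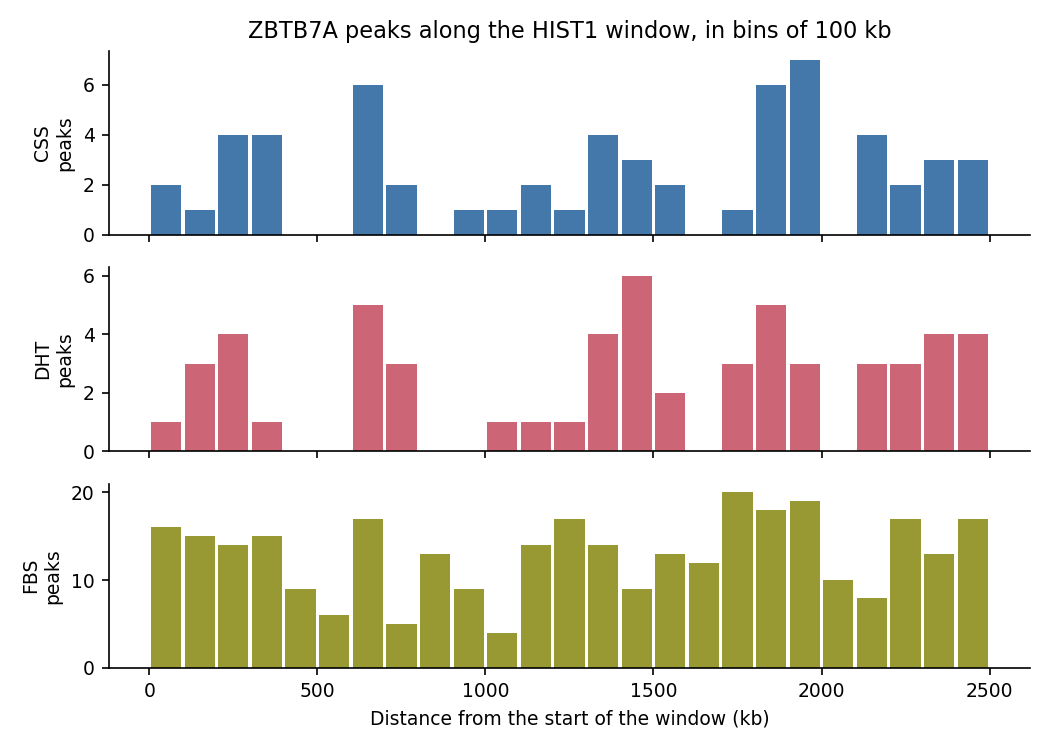
Number of ZBTB7A peaks (vertical axis, a separate scale for each list) in bins of 100 kb along the HIST1 window, against distance from its start in kb, for CSS, DHT and FBS. CSS and DHT leave the same 5 bins empty and DHT 1 more, while every bin holds at least 4 FBS peaks.

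Most member peaks were of middling or low strength within their lists, and FBS held a larger share of strong members than its list as a whole. The median fold enrichment of the member peaks was 5.25 in CSS (range 3.89 to 11.9), 5.57 in DHT (range 3.72 to 13.6) and 4.50 in FBS (range 2.67 to 14.4). The medians over the whole lists were 5.58, 5.70 and 4.56. By −log10 q the median CSS member stood at percentile 38.4 of its list (27.9 to 51.8), the median DHT member at 45.1 (31.3 to 61.4) and the median FBS member at 56.5 (51.0 to 63.4), and because many peaks share a value the median over the whole FBS list was 45.4. Ranked by fold enrichment instead, the median FBS member stood at percentile 48.5, near the middle of its list. A −log10 q of 5 or more was reached by 27 CSS members (39.7%) against 48.7% of the list, by 28 DHT members (45.9%) against 53.4%, and by 161 FBS members (46.4%) against 40.9%. A value of 10 or more was reached by 5 of 68 CSS members (7.35%, 2.43 to 16.3%) against 14.5% of the CSS list, and by 8 of 61 DHT members (13.1%, 5.84 to 24.2%) against 11.8%. In FBS it was reached by 40 of 347 members (11.5%, 8.36 to 15.4%) against 4.92%. The FBS interval lies above the share of its list, and the CSS and DHT intervals include theirs. In HIST2 alone the counts were 0 of 9, 0 of 4 and 3 of 23. A width of at least 1000 bp was reached by 1 CSS, 1 DHT and 4 FBS members, and by 1.87%, 1.36% and 0.979% of the lists. Many weak members share an identical fold enrichment: 6 CSS members had the value 4.78, held by 7.62% of that list, and 18 and 16 FBS members had 4.36 and 4.80, held by 7.78% and 9.05%.

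**Figure D3:**
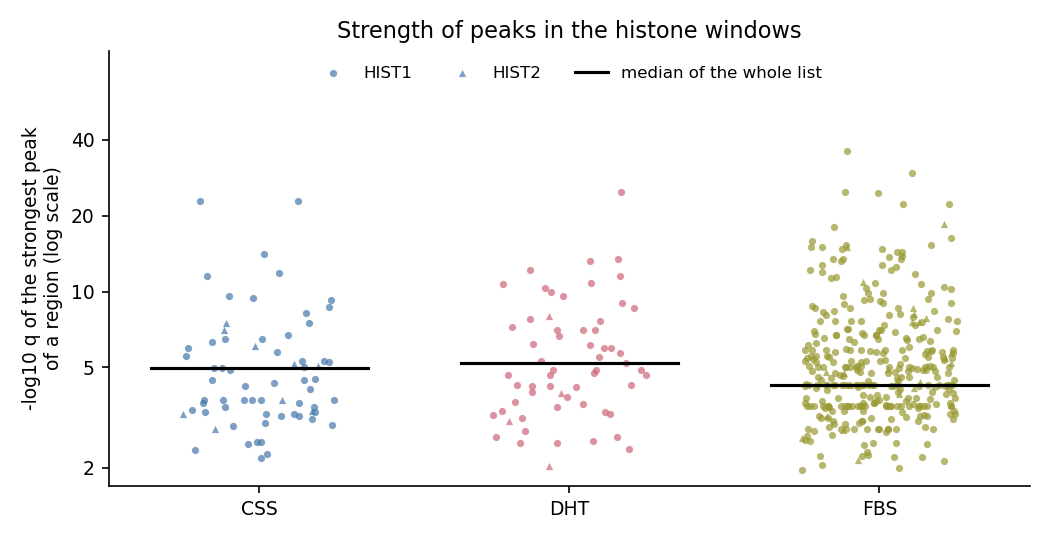
The −log10 q (log axis) of the strongest peak of each list in every merged region of the histone windows, with circles for HIST1, triangles for HIST2 and a bar at the median of the whole list; horizontal scatter within a list has no meaning. Points reach 22.8 in CSS, 24.9 in DHT and 36.2 in FBS, and no HIST2 triangle in CSS or DHT exceeds 8.01.

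The next comparison is of where the lists held the same sites. Members of CSS and DHT overlapped each other about as often as peaks did across the lists, and by the 1 bp rule they overlapped FBS peaks more often. Under stricter settings their shares with an FBS partner stayed above those of the lists, but most intervals then included the list's share. Of the 68 CSS members 37 shared 1 bp or more with a DHT peak (54.4%, 41.9 to 66.5%), against 56.8% of all CSS peaks. Of the 61 DHT members 37 overlapped a CSS peak (60.7%, 47.3 to 72.9%), against 63.9%. An FBS peak was found at 40 CSS members (58.8%, 46.2 to 70.6%), against 44.1% of the list, and at 45 DHT members (73.8%, 60.9 to 84.2%), against 48.2%. Averaging the list's own shares over the strength classes (10 of equal size by q-value) from which the members came gave 43.1% and 48.4%, which are also below the members' intervals. In the flank after HIST1, with 20.8 FBS peaks per Mb, an FBS partner was found for 21.1% (11.4 to 33.9%) of CSS and 24.5% (13.3 to 38.9%) of DHT peaks. In the flank before it, with 72.8 FBS peaks per Mb, the shares were 75.0% (55.1 to 89.3%) and 53.1% (34.7 to 70.9%). In HIST1, with 130 per Mb, they were 57.6% (44.1 to 70.4%) and 71.9% (58.5 to 83.0%). The CSS share was highest in the flank before HIST1 and the DHT share in HIST1, and the intervals of these parts overlap in both lists. The part of FBS peak density in these shares was not tested. When the overlap had to take up at least 50% of each peak, the shares of CSS and DHT members with an FBS partner were 22.1% and 34.4%, against 20.9% and 23.2% of the lists, and both intervals (12.9 to 33.8% and 22.7 to 47.7%) include the list's share. In the other direction, 58 of 347 FBS members had a CSS or DHT partner (16.7%, 12.9 to 21.1%), against 17.2% of the list. The same averaging over strength classes gave 21.2% for the FBS list, just above the members' interval.

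**Figure D4:**
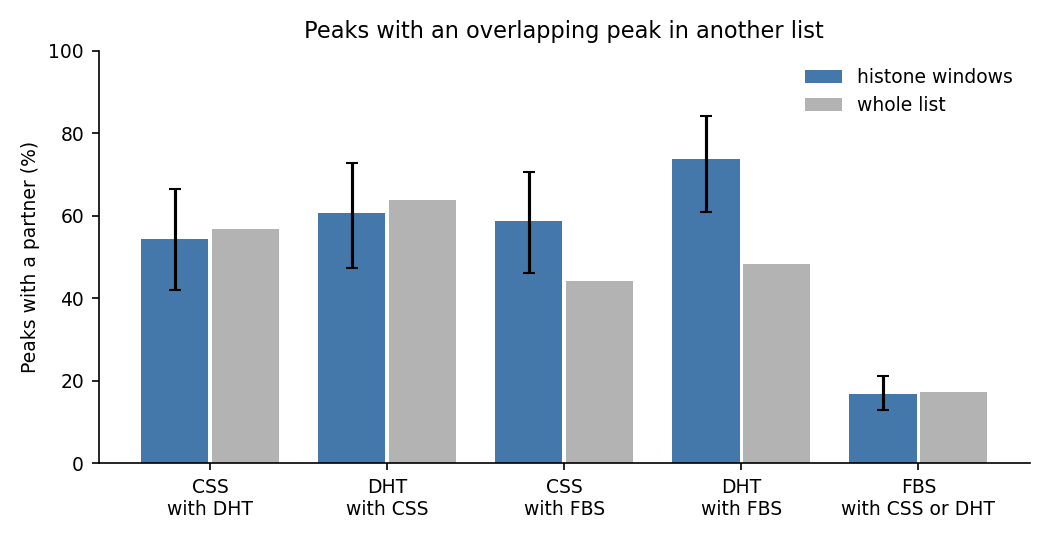
Percentage of peaks with an overlapping peak in another list, for the histone windows (blue, with exact 95% intervals) and for the whole list (grey). The blue bars stand above the grey for CSS and DHT peaks with an FBS partner, 58.8 against 44.1% and 73.8 against 48.2%, and their intervals include the grey value in the other 3 pairs.

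After merging overlapping peaks, the windows held 380 regions, 354 in HIST1 and 26 in HIST2. All 3 lists held 27 of them (7.11%, 4.73 to 10.2%), against 7.67% of all regions. CSS and DHT without FBS held 9 (2.37%, 1.09 to 4.45%), against 5.97%. DHT and FBS without CSS held 18 (4.74%, 2.83 to 7.38%), against 2.61%, and CSS and FBS without DHT held 13 (3.42%, 1.83 to 5.78%), against 2.69%. CSS alone held 18 (4.74%), against 7.57%, DHT alone 6 (1.58%), against 5.10%, and FBS alone 289 (76.1%, 71.4 to 80.3%), against 68.4%. Of the 91 regions held by CSS or DHT, FBS also held 58 (63.7%, 53.0 to 73.6%), against 41.0%. Where CSS and DHT shared a member peak, the DHT summit lay at a median of 68 bp from the CSS summit, against 62 bp over the lists.

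The same HIST1 region was the strongest member in DHT and in FBS. The region chr6:26924216-26925032 had a fold enrichment of 11.9 in CSS (rank 530 of the list by q-value), 13.6 in DHT (rank 75) and 14.4 in FBS (rank 115). At a −log10 q of 22.8 it was nearly level in CSS with the wide region chr6:27452385-27454076 (rank 520). That wide region, 1692 bp long, had a fold enrichment of 8.02 in CSS and of 7.12 in DHT, where it ranked 1420. In FBS it held a weak peak of 349 bp with a fold enrichment of 3.68 at rank 105704 of 124868. The region chr6:27794491-27795409 had 6.34 in CSS (rank 2378) and 7.02 in DHT (rank 1324), and no FBS peak overlapped it. These last 2 regions were named for their strength in CSS and DHT, and they ranked low or had no peak in FBS.

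The HIST1 sites with the strongest FBS peaks are given next. Some were named because they were strong in FBS or held by FBS only, so lower or missing CSS and DHT peaks there follow from the choice, and ranks are set within lists of 37782 (CSS), 34120 (DHT) and 124868 (FBS) peaks. The region chr6:25992465-25993188 had a fold enrichment of 9.37 in FBS at rank 368, of 7.85 in CSS at rank 7347 and of 8.64 in DHT at rank 3165. The region chr6:28072281-28073028 had 10.8 in FBS, 7.03 in CSS and 9.06 in DHT. The strong FBS peak in chr6:27356302-27357118 (9.82, rank 355) had a DHT partner at 6.52 and no CSS peak. Without any partner were the FBS peaks chr6:28104512-28105260 (9.60, rank 216), chr6:26987686-26988254 (12.2, rank 505) and chr6:28092232-28092796 (8.94, rank 1337).

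A few of the named HIST1 sites stood higher in the DHT list than in the CSS list. The first of them reached a −log10 q of 10 in DHT alone, so its high DHT percentile follows from how it was named. At chr6:28042008-28042322 the peak was at percentile 15.2 in CSS (fold enrichment 4.53), 94.1 in DHT (9.87) and 45.4 in FBS (4.80). At chr6:28303377-28304136 the percentiles were 3.72 for CSS (3.89), 86.6 for DHT (8.48) and 98.2 for FBS (7.50). The DHT peak chr6:27143459-27143777 (fold enrichment 9.13, −log10 q of 11.5) had no partner in CSS or FBS. It was named among the strongest regions held by DHT only, so the missing partners follow from the choice. The opposite order was seen at chr6:26550699-26551198, at percentile 84.2 in CSS (8.34) and 59.0 in DHT (6.17), and at chr6:28186169-28186904, at 68.5 (6.67) and 26.1 (5.15). Of the 36 member regions held by CSS and DHT, 22 had the higher percentile in DHT (61.1%, 43.5 to 76.9%), against 44.1% of all shared regions, and the interval includes that value. The other DHT-only and CSS-only sites named by the rule were weaker: chr6:26045675-26045872 (4.77) and chr6:26199170-26199427 (4.88) in DHT, and chr6:26272520-26272760 (6.09), chr6:26146151-26146341 (5.87) and chr6:26212889-26213079 (5.28) in CSS.

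The remaining 4 HIST1 regions held by all 3 lists reached a −log10 q of 10 in FBS alone, so their high FBS percentiles follow from how they were named, and each percentile is within a list of its own length. At chr6:26184000-26184446 the percentile was 97.9 in FBS, 5.02 in CSS and 18.3 in DHT. At chr6:28219341-28220045 it was 95.4 in FBS, 40.3 in CSS and 73.3 in DHT. At chr6:28234824-28235204 and chr6:28249058-28249696 it was 97.5 and 98.4 in FBS, 78.2 and 65.6 in CSS, and 71.6 and 71.6 in DHT.

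In HIST2 the FBS peaks lay in a mirror arrangement. Around a point at 149818469 on chromosome 1, the reflection of 13 of the 23 FBS peaks (56.5%) overlapped another FBS peak of the window. For 8 of them the reflected summit fell within 50 bp of that peak's summit. Both peaks of a mirrored pair are counted, so the counts are not of independent peaks and no interval is given. The axis was found from these same FBS peaks after they were seen, so the count describes them and is not a test. The matched peaks lay from 3.88 to 33.8 kb on either side. The summits at 149811957 and 149824980 matched to 0 bp, with fold enrichments of 2.69 and 2.78, and those at 149793853 and 149843085 to 1 bp, with 4.43 and 4.91. The pair at 149814588 and 149822378 had the highest −log10 q of the mirrored peaks, 10.9 and 15, and matched within 29.0 bp, with fold enrichments of 5.02 and 5.94. The outermost pair, at 149784671 and 149852215, matched within 51 bp, with 6.01 and 4.71.

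Around the same axis, 1 pair of peaks was mirrored in each of the other lists. The CSS summits at 149811994 and 149824953 mirrored each other within 10.0 bp, with fold enrichments of 4.39 and 4.46, and the DHT peaks with summits at 149812109 and 149825027 overlapped on reflection, with 4.77 and 3.72. These are the only mirrored peaks in CSS (2 of 9) and DHT (2 of 4), and they belong to the regions chr1:149811805-149812184 and chr1:149824832-149825309, which are 2 of the 3 HIST2 regions held by all 3 lists. HIST2 also holds the gene pairs on opposite strands whose promoters are printed above, H4C14 and H4C15, H3C14 and H3C15, and H2AC18 and H2AC19. Whether the mirrored peaks lie at these genes, and the part of reads shared between copies, were not tested.

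**Figure D5:**
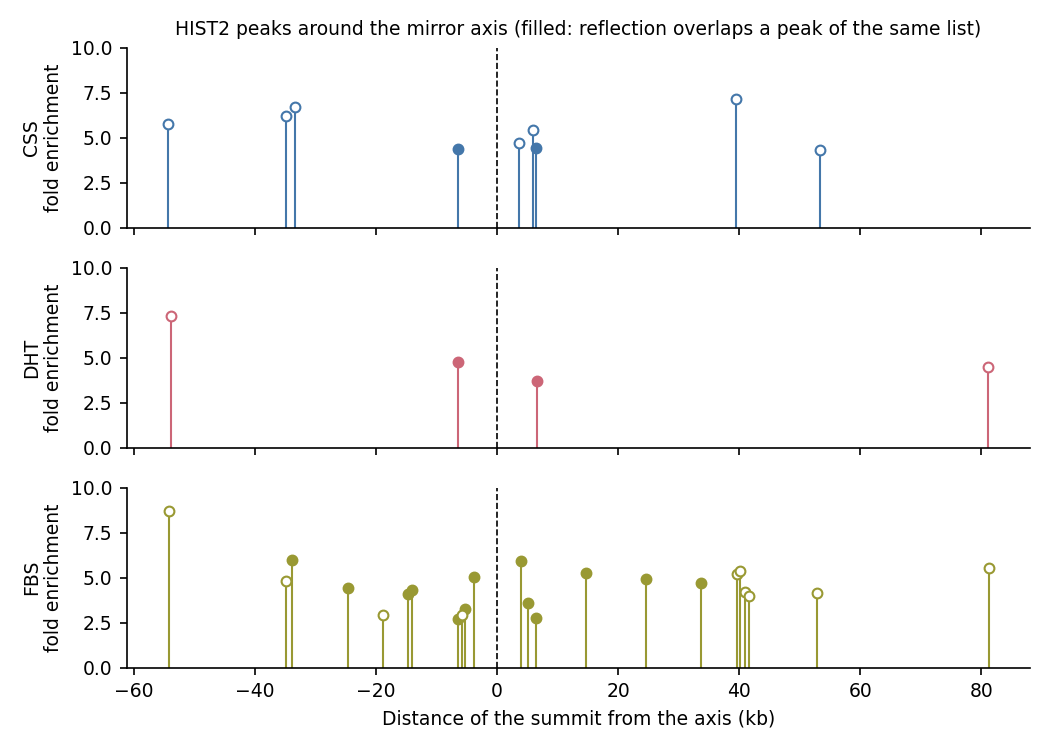
Fold enrichment (vertical axis) of each HIST2 peak against the distance of its summit from the mirror axis in kb, for CSS, DHT and FBS; filled points are peaks whose reflection overlaps a peak of the same list. Filled FBS points stand in matching places left and right of the axis out to 33.8 kb, and the FBS pair at 6.51 kb has a filled counterpart in CSS and DHT.

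HIST2 held its strongest DHT and FBS peaks near its start, while the strongest CSS peak lay toward its end, and all of these lay outside the mirrored stretch. The other HIST2 regions lay inside it as well as outside. The region chr1:149764071-149765022 had a fold enrichment of 5.79 in CSS, 7.34 in DHT and 8.73 in FBS, and ranked 913 in the FBS list. CSS and FBS without DHT held chr1:149783445-149783854 (6.24 and 4.82), chr1:149784502-149785246 (6.73 and 6.01) and chr1:149857729-149858298 (7.17 and 5.21), the last being the most enriched CSS member of HIST2, with a −log10 q of 7.51 against 5.08 at the region near the start. DHT and FBS held chr1:149899386-149900086 (4.49 and 5.55). CSS alone held chr1:149821898-149822088 (4.74), chr1:149824256-149824495 (5.45) and chr1:149871739-149871987 (4.34). The other 16 regions, which include many of the mirrored peaks, were held by FBS alone, with fold enrichments between 2.93 and 5.94. Of these, 3 lay close together from 149858539 to 149860158. With 4 DHT and 9 CSS peaks, a difference between these conditions in HIST2 was not detectable: the ratio of DHT to CSS shares was 0.492 (0.111 to 1.76).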

How the data were processed

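ZBTB7A ChIP-seq was done in 5 libraries of the VCaP cell line (2 CSS, 2 DHT, 1 FBS), and 1 peak list per condition was used. MACS2 2.0.10.20131216, SAMtools 0.1.18 and BWA 0.7.2-r351 are named with the build hg19 (GRCh37) in the submitters' processing notes. The control library, the q-value threshold, the treatment of duplicate and multiply mapped reads and the way in which the libraries of a condition were combined are not stated in the sources used here. The authors deposited for each peak a score, a fold enrichment (a ratio of the signal at the summit to background) and −log10 p and −log10 q values. The deposited score and −log10 p were not used.

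Members were chosen by summit position. Partners were peaks of another list that overlapped by at least 1 bp, and regions were merged from overlapping peaks of all lists. Percentiles and ranks are by −log10 q within a list. Shares have exact Clopper-Pearson intervals at 95%, densities exact Poisson intervals, and ratios of shares exact conditional intervals. They cover counting error only: the depth is unknown, and 1 list per condition allows no test between conditions. Regions named in the text are each HIST2 region and, in HIST1, those held by all 3 lists with a −log10 q of at least 10 in 1 of them (at most 12), the 3 strongest of each list, and the 3 strongest held by 1 list only. The members and lists were chosen with earlier results of these data known. Promoters and gene names came from RefSeq on GRCh38.p14, and no coordinates were carried between builds. The overlap step was run on slightly shifted copies of CSS peaks, which overlap their source by construction, as a check of the code alone. It recovered 100% of these 5000 planted partners, and it equalled bedtools 2.31.1 for 6 of 6 pairs of lists. Python 3.11.15, pandas 2.3.3 and SciPy 1.17.1 were used.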

Additional observations from a re-analysis of the deposited data

How the results depend on the processing

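Of 108 alternatives, 54 moved a value by more than its counting interval or a count by more than 1.5 times, and the ratios of FBS to CSS and FBS to DHT shares stayed above 1 in each setting run. Limited to a −log10 q of 5 or more, the windows held 27 CSS, 28 DHT and 161 FBS peaks, and with at least 10 they held 5, 8 and 40. With a fold enrichment of at least 5 they held 36 CSS and 121 FBS peaks. The FBS to CSS ratio of shares was 2.15 and 7.15 at the q-value limits of 5 and 10, the FBS to DHT ratio 3.29 at 10, and the DHT to CSS ratio 2.17 at 10 (0.627 to 8.44). With equal numbers of top peaks from each list the FBS to CSS ratio was 1.98. An FBS partner was found for 22.1% of CSS and 34.4% of DHT members when 50% of both peaks had to overlap (whole lists 20.9% and 23.2%), for 27.9% and 29.5% with summits within 100 bp (19.7% and 22.3%), for 36.1% and 44.3% with equal numbers of top peaks from each list (26.7% and 27.6%), and for 40.7% and 53.6% at a −log10 q of at least 5 (35.8% and 34.3%). Of these 4 settings, the CSS interval excluded the list's share in 0 and the DHT interval in 1, that of equal numbers (31.5 to 57.6%). The members' shares stayed above those of the lists in each setting. The settings of equal numbers and of −log10 q kept the 1 bp rule with fewer peaks. An excess was also seen for peaks within 500 bp of each other (69.1% and 75.4% against 50.9% and 54.8%). With summits within 100 bp, 30.9% of CSS members had a DHT partner (whole list 37.8%) and 34.4% of DHT members a CSS partner (41.8%), and the latter share was 46.4% at a −log10 q of at least 5 (62.1%). For FBS members with a CSS or DHT partner these settings gave, in the order above, 8.36%, 8.93%, 28.9% and 11.8%, against 9.40%, 9.36%, 31.8% and 17.5% of the list. Ranked by fold enrichment, the median FBS member stood at percentile 48.5. At a −log10 q of at least 5, all 3 lists held 7 merged regions, FBS alone 142, FBS with 1 of CSS and DHT 12 and CSS alone 10, and CSS alone held 11 when peaks within 500 bp were merged. Stricter limits leave fewer peaks by construction, and for the rest the cause was not tested.

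No paired analysis was possible because each condition has 1 peak list, which also kept any single library from being left out. Distances to histone gene starts were not computed, since no hg19 annotation was used here. The mirrored HIST2 peaks were counted around an axis chosen after seeing the data, as was the alternative with summits within 100 bp.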
